A study of Homo sapiens with 12 samples.

Results

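Senescent IMR-90 cells were compared with every nonsenescent group of the same series. For each gene, the equal-weight mean of the 3 nonsenescent group means was subtracted from the mean of the senescent group, and each change was then asked to hold against every nonsenescent group on its own. All 12 arrays of the series entered the comparison, 3 of senescent and 9 of nonsenescent cells, and 19775 genes were measured. IMR-90 is an established fibroblast line from human lung with a limited replicative lifespan. The senescent cells had reached population doubling 48 under 20% oxygen. The nonsenescent groups, with 3 arrays each, were young cells at population doubling 30 under 20% oxygen, young cells at population doubling 30 under 3% oxygen, and old cells at population doubling 53 under 3% oxygen that had not become senescent. The labels name no genetic change or drug for any group, and all were grown in serum-containing medium.

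The design sets limits on each of these contrasts. The young cells at 20% oxygen shared the oxygen level of the senescent cells but had undergone fewer doublings. The old cells at 3% oxygen had undergone more doublings but grew at the other oxygen level, in a separate incubator. Against the 3% groups, senescence, oxygen, incubator and doublings therefore cannot be told apart, since young 3% cells had undergone fewer doublings and old cells more, and against the young 20% group senescence and doublings cannot be told apart. A change called against all 3 groups had the same sign across these unlike contrasts. All groups came from a single cell line, and the labels call the replicates biological without saying whether they were separate cultures, so the p-values measure the spread between these samples.

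Cellular senescence is a lasting arrest of division that follows telomere shortening or other damage. It is held by the p53 and p21 pathway and by the p16 and RB pathway, which keep E2F factors from switching on genes of DNA synthesis. Senescent fibroblasts are known for loss of lamin B1, a larger lysosomal compartment, and secretion of proteases, cytokines and matrix components.

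Values are on a log2 scale relative to the median of the 12 arrays for each probe set. They show differences between arrays and no absolute levels, so that the fibroblast identity could not be checked by level. Of 10 fibroblast markers, 2 (COL3A1 and VIM) were lower in senescent cells than in each group, and 3 were higher and 4 lower than the mean of the 3 groups; the sum of the list was -0.56 to -0.39 on the senescent arrays and -1.43 to 3.60 on the others. None of the 11 epithelial, 10 endothelial, 8 immune and 6 mesothelial markers was called against the mean or against each group, and of 10 pericyte and smooth muscle markers only NOTCH3 was called against each group, as higher. The part of these markers in the results was not tested. Array medians ran from -0.017 to 0.045, and the 3′ minus 5′ signal of ACTB, a measure of RNA quality, was 0.10, 0.03 and 0.35 on the senescent arrays and between -0.22 and 0.71 on the others. The median difference of all genes from the mean of the 3 groups was 0.04.

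Of 19775 genes, 2583 (13.1%) differed between senescent cells and the mean of the 3 groups at an adjusted p under 0.05 in limma, 1039 higher (5.25%) and 1544 lower (7.81%). Far fewer held against each group. Among them, 611 genes (3.09% of all genes, 23.7% of the 2583) were called in the same direction against every group, 264 higher (1.34%) and 347 lower (1.75%). The larger number of lower genes did not hold under array quality weights (644 higher and 612 lower) or with the ACTB 3′ minus 5′ signal as a covariate (331 and 324). That covariate was chosen after the data were seen. These 611 genes are called separate in the rest of the text. The comparison with young cells at 20% oxygen called 2474 genes (12.5%), 923 higher (4.67%) and 1551 lower (7.84%). Against young cells at 3% oxygen 2157 genes were called (10.9%), 1029 higher (5.20%) and 1128 lower (5.70%), and against old cells at 3% oxygen 2176 (11%), 872 higher (4.41%) and 1304 lower (6.59%).

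Most separate genes changed by less than 2-fold. The median of the smallest of the 3 differences was 0.53 for the higher and -0.55 for the lower genes, and 22 higher and 42 lower genes passed 2-fold against every group. All 264 higher genes and 343 of the 347 lower genes had 3 senescent arrays outside the range of the 9 others. A call against each group from the same arrays favours this outcome, so it is no further support. Over all genes, 4.19% lay above and 4.15% below that range. In 223 higher and 247 lower genes, the nonsenescent group means lay closer together than the smallest distance to the senescent mean. Leaving out senescent replicate 2 lowered the count from 611 to 398 (175 higher and 223 lower, 385 of them among the 611). Across the 12 settings that each left out 1 array, 331 of the 611 genes (54.2%) held in every setting, 154 higher and 177 lower.

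The same rule applied to the other groups gave 879 separate genes for young cells at 20% oxygen (4.45%; 603 higher, 3.05%, and 276 lower, 1.40%), 160 for old cells at 3% oxygen (0.809%; 89 higher, 0.450%, and 71 lower, 0.359%) and 59 for young cells at 3% oxygen (0.298%; 28 higher and 31 lower). Quantile normalization of the arrays gave 45 higher and 31 lower genes for the last group. Senescent cells were thus second to young cells at 20% oxygen in the number of separate genes, and the difference between these counts was not tested. Without young 20% replicate 1 the count for that group was 561, and without old replicate 2 the count for old cells was 94.

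Genes called against the mean most often failed against young cells at 20% oxygen. The class that held against both 3% groups and not against young 20% cells had 293 higher and 420 lower genes, 28.2% and 27.2% of those called in each direction. A further 125 higher and 301 lower genes held against young 20% cells alone. The mean also joined groups that lay on opposite sides of the senescent cells. Among genes called higher than the mean, 29 were called lower than young cells at 20% oxygen, and among genes called lower, 25 were called higher than that group.

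The largest difference from the mean that did not hold was in KRTAP1-5, a keratin-associated protein gene, at 1.96, 1.99 and 1.95 in senescent cells. Young 20% cells were at 1.27 to 1.56 and the 3% groups at -2.30 to -1.27. The senescent arrays lay above all others, but the difference of 0.54 from young 20% cells did not pass the test (adjusted p 0.142). CD24, a surface glycoprotein gene, overlapped with young 20% cells, at -0.93, -1.48 and -0.91 against -1.49 to -0.90, and stood at 0.95 to 2.31 in the 3% groups. LIF, a cytokine gene, was called lower than the mean. Its senescent arrays at -0.04 to 0.08 overlapped young 3% cells at -0.03 to 0.15, with young 20% cells far above at 2.31 to 2.43 and old cells below at -0.99 to -0.70. Quantile normalization ended that call (adjusted p 0.0707).

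**Figure D1:**
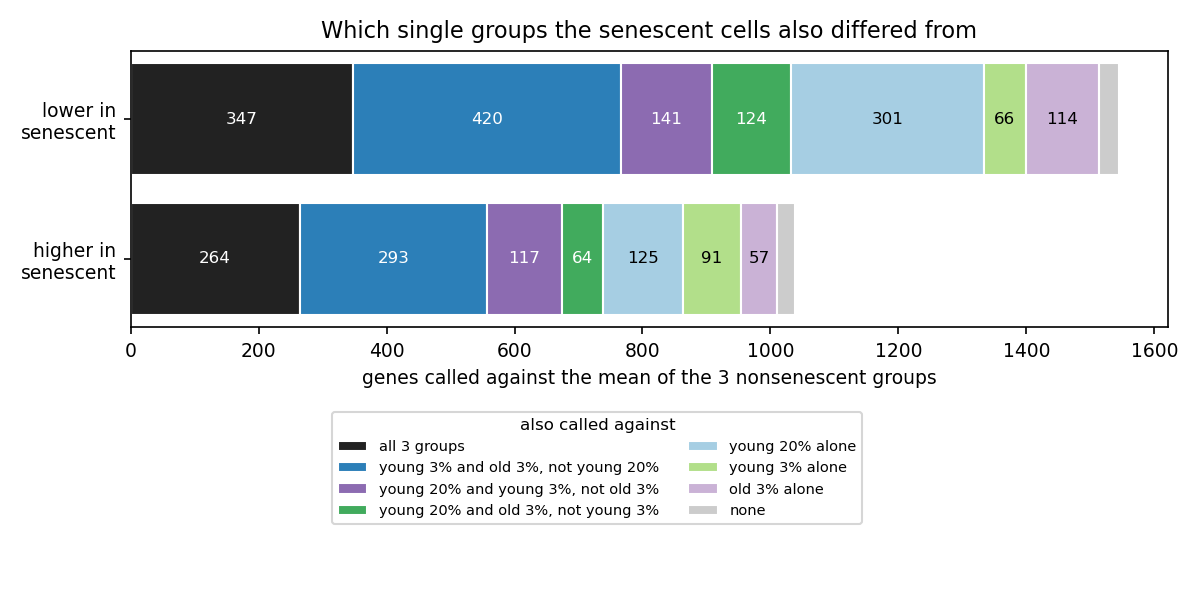
Number of genes called against the mean of the 3 nonsenescent groups (x axis), for genes higher and lower in senescent cells, divided by the single groups against which the call also held. The black segments are the 264 higher and 347 lower genes that held against all 3 groups, and the blue segments next to them, 293 and 420 genes, held against both 3% oxygen groups but not against young cells at 20% oxygen.

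**Figure D2:**
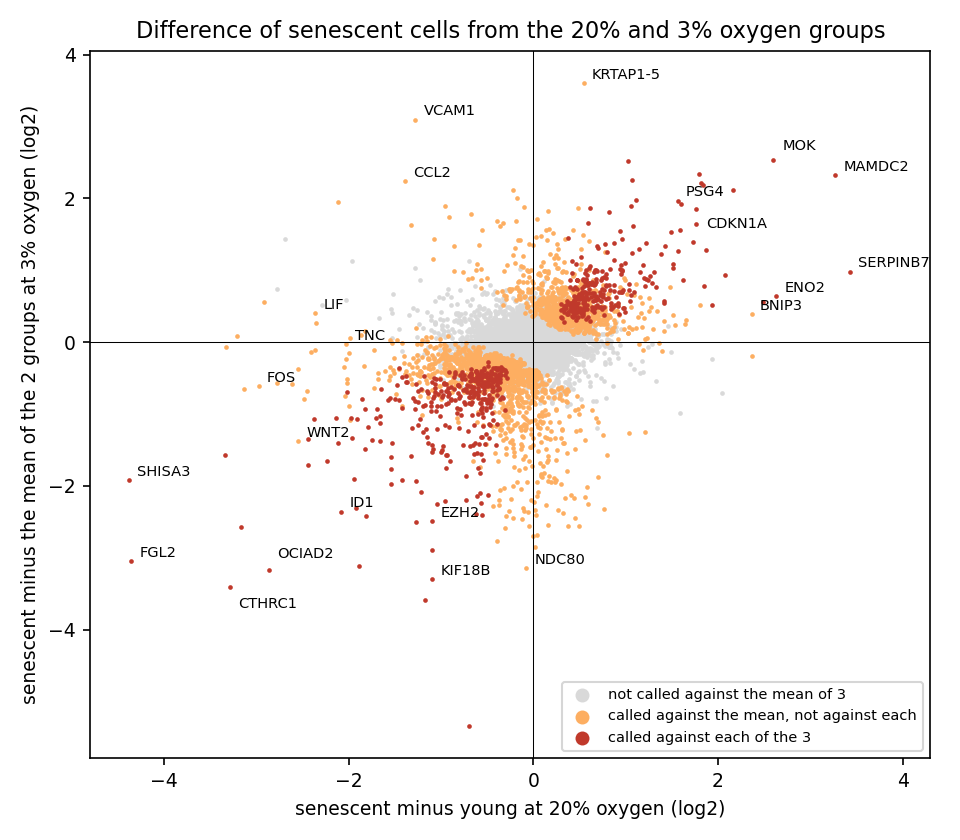
Each point is 1 of 19775 genes, with the log2 difference of senescent cells from young cells at 20% oxygen (x axis) and from the mean of the 2 groups at 3% oxygen (y axis). Separate genes (red) lie in the upper right and lower left. Orange marks genes called against the mean and not against each group. Many of them lie near 0 on the x axis, such as NDC80, or on opposite sides of 0, such as VCAM1 and CCL2.

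The largest rises were in genes of several functions. MOK, which encodes a MAP kinase-related kinase, stood at 2.56, 2.54 and 2.36 on the senescent arrays and between -0.52 and 0.30 on the 9 others (median -0.09). No array of another group came near the senescent arrays. The smallest of its 3 differences was 2.49 (5.6-fold, largest adjusted p 1.49e-06). MAMDC2, a proteoglycan gene, stood at 2.47, 2.33 and 2.26 against -1.03 to 0.39 elsewhere (median -0.07). Its smallest difference was 2.14, against old cells, while young cells at 20% oxygen were lowest.

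MAP3K7CL (2.15, 1.97 and 2.03 on the senescent arrays, -0.31 to 0.29 on the others) and the transcription factor gene NFE2L3 (1.78, 1.89 and 1.83 against -0.71 to 0.07) followed. Their smallest differences were 2.04 and 1.84. The carboxypeptidase gene CPA4 was at 1.81, 1.80 and 1.60 against -1.03 to 0.23, with old cells the lowest group. IL32, a cytokine gene, was at 1.66, 1.65 and 1.58 against -0.26 to 0.20, with a smallest difference of 1.54. GALNT15, a glycosyltransferase gene, was at 1.52, 1.61 and 1.31 against -0.28 to 0.11. These genes were chosen to have their senescent arrays outside the other 9, and the other groups differed most in CPA4.

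CTHRC1, which encodes a secreted protein known to limit collagen deposition, had the largest fall by the smallest of the 3 differences. It stood at -3.24, -3.32 and -3.19 in senescent cells and between -0.21 and 0.47 in the 9 others (median 0.01). The senescent arrays lay more than the whole spread of the others below them. The smallest difference was -3.14 (8.82-fold lower, largest adjusted p 9.01e-10). OCIAD2 stood at -3.29, -2.77 and -2.46 against -0.06 to 0.65, and its smallest difference was -2.87.

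FGL2, which encodes a fibrinogen-like protein, stood at -2.78, -3.39 and -3.0 against -0.43 to 1.52, with young cells at 20% oxygen the highest. WFDC1, of the whey acidic protein family, stood at -2.56, -2.59 and -2.61 against -0.35 to 0.69. PTGIS, the prostacyclin synthase gene, stood at -1.82, -1.90 and -2.07 against -0.08 to 0.87. The fall of PTGIS rested on a single one of its 3 probe sets, at -6.35 from the mean of the 3 groups, while the other probe sets were at -0.15 and -0.05.

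SHISA3 stood at -2.07, -2.20 and -1.43 against -0.61 to 2.85. Its difference from young cells at 20% oxygen was -4.39 and from young cells at 3% oxygen -1.49. PFAS, an enzyme gene of purine synthesis, stood at -1.42, -1.76 and -1.56 against -0.12 to 0.39, with a smallest difference of -1.55. Of the genes chosen after their values were seen, PRPS1, which supplies the same pathway, moved the other way, at 1.23, 1.10 and 0.99 against -0.70 to 0.17. RELN, which encodes reelin, a secreted guidance protein, was at 1.04, 1.07 and 1.02, with both young groups between -0.09 and 0.21 and old cells at -2.04 to -1.91. CLDN1, a tight junction gene, was at 1.75, 1.86 and 1.70, with young 20% cells at 0.74 to 0.76 and the 3% groups at -0.98 to -0.63. In both genes the senescent arrays lay above the others, which differed among themselves.

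Among the falls, ADGRL4, an adhesion receptor gene, was at -2.60, -2.83 and -1.69 against -0.74 to 1.19. SPOCK1, a proteoglycan gene, was at -1.60, -2.18 and -1.91 against -0.24 to 1.07, with young 3% cells highest. The noncoding RNA LINC01116, chosen after its values were seen, differed more from the mean of the 3 groups (-3.79) than CTHRC1 did (-3.37). It was at -5.21 from young 3% and -5.46 from old cells. Its difference from young 20% cells was -0.70 (largest adjusted p 0.00485).

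**Figure D3:**
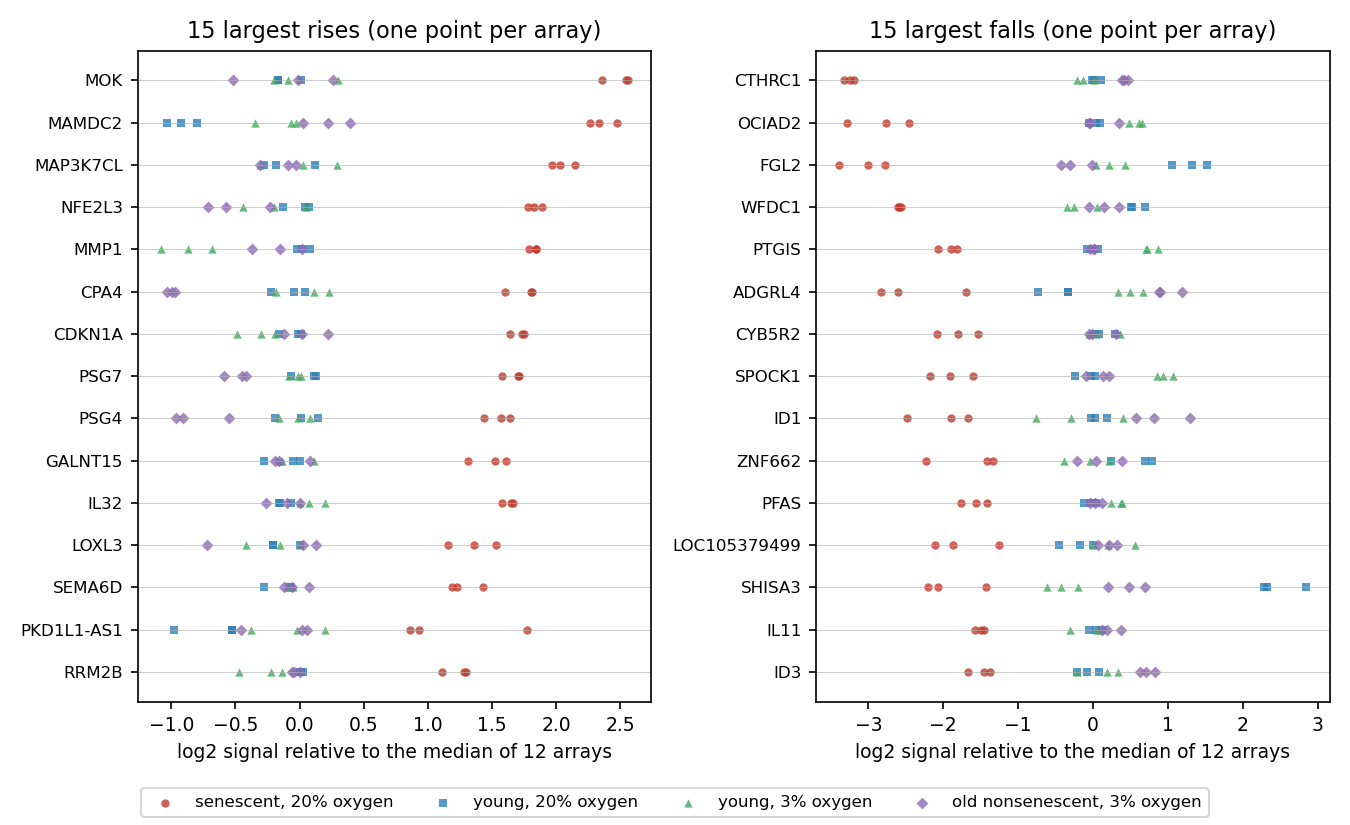
Log2 signal relative to the median of the 12 arrays (x axis) for the 15 genes with the largest rise and the 15 with the largest fall among separate genes, 1 point per array. The genes were chosen to have their 3 senescent arrays (red circles) outside the 9 others, with MOK at 2.36 to 2.56 at the top of the rises and CTHRC1 at -3.32 to -3.19 at the top of the falls.

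Every list count below stands beside the shares over all genes, 1.34% separate and higher and 1.75% separate and lower. Differences from these shares were not tested. Among CDK inhibitors, which stop cyclin-dependent kinases, 2 of 6 genes were separate and higher, and 3 were higher than the mean (list median 0.33). CDKN1A, encoding p21, was at 1.64, 1.73 and 1.75 in senescent cells and at -0.49 to 0.22 elsewhere. Its smallest difference was 1.67 (3.18-fold, largest adjusted p 6.17e-07), against old cells. CDKN2A, encoding p16 and ARF, was at 0.65, 0.65 and 0.59, with young 20% cells at 0.12 to 0.22 and old cells at -0.83 to -0.27. Its smallest difference of 0.47, against young 20% cells, had a largest adjusted p of 0.0348 and was lost when any of the senescent or young 20% arrays was left out (adjusted p up to 0.119, without young 20% replicate 1). It was also lost with the replicate number as a block over all groups (0.0658). The probe sets of CDKN2A disagreed, at 0.812, 0.578 and 0.009 from young 20% cells. The call was lost with uncollapsed probe sets and held when the probe set of largest spread stood for the gene. CDKN2B, encoding p15, was 0.55 higher than the mean but 0.32 lower than young cells at 20% oxygen. Its probe sets disagreed, at 0.951 and 0.157 from the mean and at -0.749 and 0.1 from young 20% cells.

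Of 25 p53 targets, 7 were separate and higher and none lower, and 11 were higher than the mean (median 0.28). RRM2B, a p53-induced ribonucleotide reductase subunit, was at 1.28, 1.11 and 1.30 against -0.47 to 0.03. SPATA18, a mitochondrial quality gene, was at 1.03, 0.95 and 0.96 against -0.54 to 0.33. CCNG1 was at 0.66, 0.76 and 0.61 against -0.35 to 0.05, and PLK2 at 0.60, 0.57 and 0.63 against -0.91 to 0.07. In all 4 genes, the senescent arrays lay above the others. SESN1 and ZMAT3 were separate too, but SESN1 was lost without any single senescent array (adjusted p up to 0.139 over the arrays left out, without old replicate 3) and ZMAT3 without senescent replicates 1 or 2 or young 20% replicates 1 or 2 (up to 0.13, without young 20% replicate 2). A replicate block over all groups also ended the call of SESN1 (0.0559), and the probe set of largest spread that of ZMAT3 (0.376). GADD45A and GDF15 were higher than the mean and not separate.

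DNA replication genes showed a graded pattern. Of 47 genes, 33 were lower than the mean (median -0.65) and 11 were separate and lower, with no gene higher. MCM6, a subunit of the replicative helicase, was at -0.98, -1.19 and -1.16 against -0.21 to 0.79, with young 3% cells the highest. Its smallest difference was -1.09 (2.13-fold lower, largest adjusted p 6.6e-05). RRM2, the S-phase ribonucleotide reductase subunit, was at -1.28, -1.66 and -1.65, with young 20% cells at -1.11 to -0.74 and the 3% groups at 0.81 to 0.97. UHRF1, which maintains DNA methylation, was at -0.88, -1.0 and -0.90 against -0.47 to 0.49.

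CCNE2, an S-phase cyclin gene, was at -0.77, -1.41 and -0.68 against -0.19 to 0.54. Its probe sets disagreed, at -1.928 and 0.004 from young 20% cells and at -1.785 and 0.009 from old cells. DTL, a ubiquitin ligase adaptor gene of S phase, was at -1.06, -1.28 and -0.97 against -0.71 to 1.11. The probe sets of DTL were at -1.109 and -0.048 from young 20% cells. CDC6, which loads the helicase, had group means of -0.72 in senescent cells, -0.18 in young 20%, 0.62 in young 3% and 0.28 in old cells (largest adjusted p 0.00529). Leaving out single arrays ended the calls of GINS1 (adjusted p up to 0.156, without young 20% replicate 3), RFC4 (up to 0.0955, without senescent replicate 3) and DTL (up to 0.0995, without young 20% replicate 2), and 6 of the 11 genes held without each of the arrays. The call of RRM2 was also lost when the probe set of largest spread stood for the gene (adjusted p 0.923). MCM7 and POLE2 were lower than the mean but not separate: their differences from young 20% cells were -0.42 and -0.44, with adjusted p of 0.0644 and 0.226.

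The promoter windows of MCM6, CDC6 and DTL are printed because E2F factors, which the RB pathway restrains, are known to act on replication genes. Each window holds 300 bases, 250 before and 50 after the start of the gene, from RefSeq on GRCh38.p14: MCM6 at chr2:135876394-135876693 on the minus strand, CDC6 at chr17:40287629-40287928 on the plus strand and DTL at chr1:212035498-212035797 on the plus strand. Capitals mark TTTNGCGC, an E2F-type motif searched on both strands, with 4 matches that overlap in pairs in MCM6 and 1 match each in CDC6 and DTL.
MCM6: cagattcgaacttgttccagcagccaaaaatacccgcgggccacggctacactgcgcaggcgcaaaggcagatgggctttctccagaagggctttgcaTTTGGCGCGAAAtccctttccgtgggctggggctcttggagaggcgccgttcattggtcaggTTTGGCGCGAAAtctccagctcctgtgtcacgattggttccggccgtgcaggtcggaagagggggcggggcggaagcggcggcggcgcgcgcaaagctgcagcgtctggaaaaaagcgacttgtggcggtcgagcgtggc
CDC6: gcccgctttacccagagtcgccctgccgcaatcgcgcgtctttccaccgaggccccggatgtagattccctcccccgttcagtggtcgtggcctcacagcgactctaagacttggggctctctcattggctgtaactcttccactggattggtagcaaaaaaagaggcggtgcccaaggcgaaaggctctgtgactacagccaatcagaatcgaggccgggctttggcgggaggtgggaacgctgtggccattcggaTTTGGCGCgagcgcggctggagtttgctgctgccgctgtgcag
DTL: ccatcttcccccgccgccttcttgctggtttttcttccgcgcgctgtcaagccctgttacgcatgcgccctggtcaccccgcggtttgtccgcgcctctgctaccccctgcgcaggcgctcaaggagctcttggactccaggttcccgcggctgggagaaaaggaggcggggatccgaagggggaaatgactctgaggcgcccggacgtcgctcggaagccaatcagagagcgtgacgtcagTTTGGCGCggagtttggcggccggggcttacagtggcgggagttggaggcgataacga
The motif was in 629 of 35116 windows of all genes (1.79%). It was in 5 of the 10 separate replication genes with a window, MCM6, CDC6 and DTL among them, and in 11 of the 30 others of the list with a window. A gene counted if any of its windows held the motif, so these gene counts and the share of windows are in unlike units. A match is a description of letters and no measure of binding.

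Mitotic genes differed from replication genes. Of 48 genes, 47 were lower than the mean, with a median of -1.23, the lowest of the lists described, but only AURKA was separate. Against young cells at 20% oxygen, 8 of the 48 were higher and 1 lower (median 0.16), whereas 47 were lower than young 3% cells and 48 lower than old cells. NDC80, a kinetochore gene, was at -1.20, -1.59 and -1.57 on the senescent arrays. Its young 20% arrays ran from -1.46 to -1.26 and the 6 arrays of the 3% groups from 1.20 to 2.34. The senescent and young 20% arrays overlapped. BUB1B, a spindle checkpoint gene, was at -1.07, -2.09 and -1.47 against -1.81 to -1.43 in young 20% cells, and KIF11, a spindle motor gene, at -1.29, -1.66 and -1.76 against -1.40 to -0.97.

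The proliferation marker MKI67 was at -0.66, -0.90 and -0.93 in senescent cells, -1.15 to -0.83 in young 20% cells and 0.56 to 1.13 in the 3% groups. Its difference from young 20% cells was 0.16 (adjusted p 0.635). AURKA, a mitotic kinase gene, was at -0.77, -1.15 and -1.07 against -0.29 to -0.20 in young 20% cells, a difference of -0.76 (largest adjusted p 0.000357). KIF18B, ZNF367 and CDC7, chosen after their values were seen, were also separate and lower, with smallest differences of -1.10, -1.10 and -1.05. CDC7 encodes the kinase that fires replication origins.

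Nuclear lamina and chromatin genes fell with the replication genes: 7 of 28 were separate and lower, 17 were lower than the mean (median -0.35), and none was higher. EZH2, the Polycomb methyltransferase, was at -1.88, -1.83 and -1.94 against -1.06 to 0.83, with young 20% cells next lowest. LMNB1, encoding lamin B1, was at -1.23, -1.60 and -1.50 against -0.89 to -0.72 in young 20% cells and 0.72 to 1.12 in the 3% groups. Its smallest difference was -0.62, and quantile normalization ended its call (adjusted p 0.104). HMGB1 was at -0.62, -0.75 and -0.86 against -0.32 to 0.49. The call of HMGB1 was lost when its probe set of largest spread stood for the gene (adjusted p 0.0505). HMGB2 differed from the mean by -0.35 and from young 20% cells by 0.33 (adjusted p 0.10). Its probe sets disagreed, at -0.819 and 0.128 from the mean and at 0.643 and 0.024 from young 20% cells. The call of HMGB2 against the mean was lost without any single senescent array (adjusted p 0.156, 0.0615 and 0.116) and without 6 of the other arrays (up to 0.0592). LMNB2, LBR and DNMT1 lost their calls when single arrays were left out (LMNB2 up to 0.133 without senescent replicate 3, LBR up to 0.0686 without young 20% replicate 2, DNMT1 up to 0.0747 without young 20% replicate 2).

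**Figure D4:**
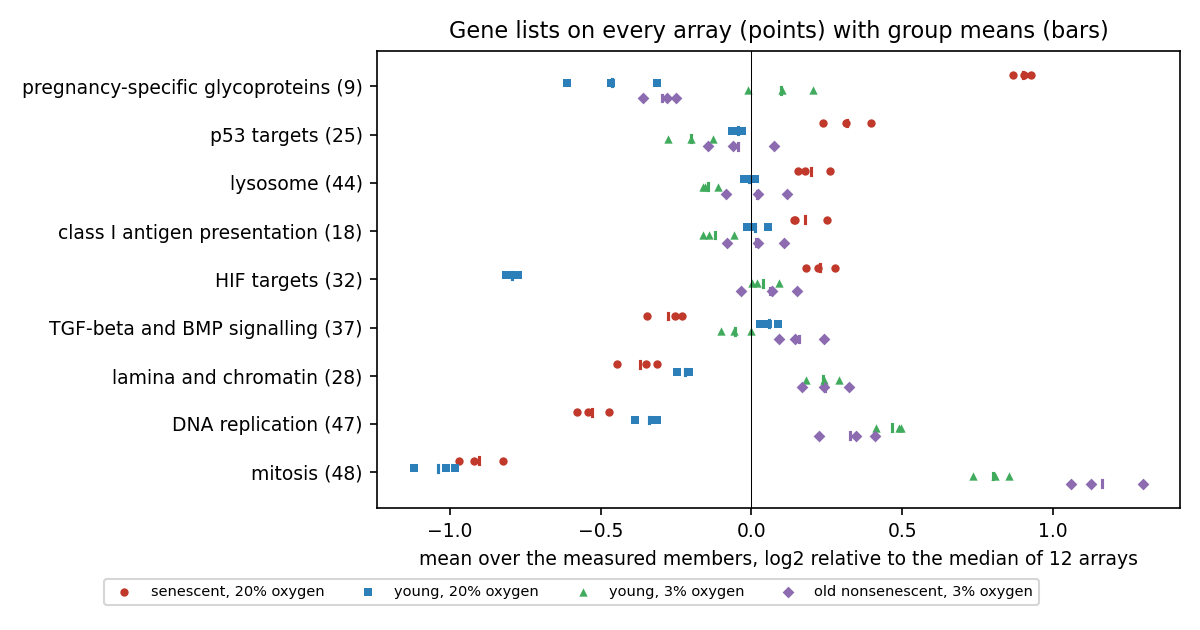
Mean over the measured members of 9 gene lists on every array (points) with group means (bars), as log2 relative to the median of the 12 arrays (x axis; number of genes in brackets). Senescent arrays (red) lie apart from the others for pregnancy-specific glycoproteins (0.87 to 0.93 against -0.61 to 0.20), lie with young 20% cells for mitosis (-0.97 to -0.82 and -1.12 to -0.98), and young 20% cells are the outlying group for HIF targets (-0.81 to -0.77).

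Pregnancy-specific glycoprotein genes, a cluster of secreted immunoglobulin-family genes known from the placenta, were the list with the largest share of separate genes. Of 9 measured genes, 8 were separate and higher, all but PSG11, with a list median of 1.11 from the mean of the 3 groups. PSG7 was at 1.58, 1.70 and 1.71 against -0.59 to 0.13, and PSG4 at 1.44, 1.57 and 1.64 against -0.96 to 0.14. PSG5 was at 0.68, 0.96 and 0.54, with young 3% cells at 0.07 to 0.16 and young 20% cells at -1.32 to -0.99. Their smallest differences were 1.60, 1.56 and 0.61. PSG2 and PSG3 lost their calls when single arrays were left out (adjusted p up to 0.136 without senescent replicate 1 and up to 0.0999 without senescent replicate 2), and 6 of the 8 held in each such setting.

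The windows of PSG3, PSG4 and PSG5 are printed to show how alike the promoters of these members are. They are not the transcript sequence that the probes target. Whether a probe set of 1 member also took up signal of others was not tested, so the calls of this list may not be independent. They lie at chr19:42740432-42740731, chr19:43205589-43205888 and chr19:43186487-43186786, all on the minus strand of GRCh38.p14, from RefSeq. Capitals mark the longest stretch shared by all 3, of 54 bases.
PSG3: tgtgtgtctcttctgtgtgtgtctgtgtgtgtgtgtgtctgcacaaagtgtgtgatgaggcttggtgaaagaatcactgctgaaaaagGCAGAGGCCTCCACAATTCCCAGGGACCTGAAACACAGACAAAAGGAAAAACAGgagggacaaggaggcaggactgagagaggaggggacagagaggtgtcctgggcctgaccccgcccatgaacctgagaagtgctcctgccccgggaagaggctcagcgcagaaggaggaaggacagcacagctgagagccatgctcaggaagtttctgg
PSG4: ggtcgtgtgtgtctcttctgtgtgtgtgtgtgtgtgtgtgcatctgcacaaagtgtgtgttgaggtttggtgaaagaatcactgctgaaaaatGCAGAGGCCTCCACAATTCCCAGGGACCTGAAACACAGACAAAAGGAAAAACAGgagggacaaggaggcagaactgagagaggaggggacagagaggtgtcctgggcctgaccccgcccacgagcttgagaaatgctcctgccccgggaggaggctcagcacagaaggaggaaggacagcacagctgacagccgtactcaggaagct
PSG5: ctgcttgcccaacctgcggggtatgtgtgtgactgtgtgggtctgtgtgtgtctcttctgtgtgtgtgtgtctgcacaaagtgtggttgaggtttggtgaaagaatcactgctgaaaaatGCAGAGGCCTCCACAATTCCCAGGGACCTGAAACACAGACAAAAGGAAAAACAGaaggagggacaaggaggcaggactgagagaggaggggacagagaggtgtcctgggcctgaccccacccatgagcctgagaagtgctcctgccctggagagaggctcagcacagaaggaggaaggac
Aligned windows were identical at 279 of 295 bases for PSG3 and PSG4 (94.6%), 253 of 264 for PSG3 and PSG5 (95.8%) and 256 of 266 for PSG4 and PSG5 (96.2%).

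Among 37 TGF-beta and BMP signalling genes, 8 were separate and lower and 1 higher, while 12 were lower than the mean and 1 higher (median -0.13). The ID genes, BMP-induced inhibitors of helix-loop-helix factors, were all separate. ID1 was at -1.90, -1.67 and -2.49 against -0.76 to 1.29, and ID3 at -1.38, -1.46 and -1.67 against -0.22 to 0.83. ID2 was at -0.89, -1.26 and -1.06 against -0.12 to 0.39. ID4 was at -1.42, -1.58 and -1.54 against -0.30 to 0.59, a mean of 5 probe sets of which 3 carried the fall.

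SMAD7, an inhibitory SMAD induced by the pathway, was at -1.29, -1.58 and -1.39 against -0.79 to 0.41. TGFBR1, a receptor gene, was at -0.43, -0.49 and -0.54 against -0.10 to 0.30. The ligand gene TGFB2 rose, at 0.86, 0.97 and 0.71 against -0.55 to 0.05. FST, an activin inhibitor, was separate and lower, but its smallest difference went from -0.41 to -0.12 when the probe set of largest spread stood for the gene (adjusted p 0.78). Its call was also lost under quantile normalization (0.221) and without senescent replicates 2 (0.0849) or 3 (0.0669) or young 20% replicate 3 (0.092).

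Among cytokines and chemokines of the senescence-associated secretory set, the separate genes were all lower. None of 36 was separate and higher, beside 1.34% of all genes, and 4 were separate and lower, beside 1.75%. The difference from these shares was not tested. Against the mean, 7 were higher and 8 lower (median 0.03). IL6 was at -1.04, -1.26 and -1.35 against -0.41 to 0.22, IL11 at -1.50, -1.45 and -1.57 against -0.31 to 0.37, and CXCL8, encoding interleukin 8, at -1.32, -1.50 and -1.49 against -0.72 to 0.83. In these 3 genes the senescent arrays lay below all others. The probe sets averaged for CXCL8 disagreed against young 3% cells, at -1.84 and 0.03. Both were lower than young 20% cells (-3.08 and -1.16) and old cells (-2.64 and -1.19). CXCL12 lost its call when any senescent array was left out and under quantile normalization (adjusted p 0.319). PTGS2, the inducible prostaglandin synthase gene, chosen after its values were seen, was at -1.90, -2.79 and -1.95 against -1.17 to 1.91.

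CCL2, a monocyte chemokine gene, was higher than the mean (1.03) and ran opposite ways: it was 1.40 lower than young 20% cells, 1.36 higher than young 3% cells and 3.11 higher than old cells. VCAM1, an adhesion gene, was at 0.93, 1.06 and 1.04, between young 20% cells at 2.23 to 2.41 and old cells at -3.21 to -2.83. TNFRSF11B, which encodes osteoprotegerin, and, named after their values were seen, PTX3 and TSLP were likewise called lower than young 20% cells and higher than both 3% groups. The gamma-glutamyl hydrolase gene GGH ran the other way: it was 1.21 higher than young 20% cells and its differences from the 3% groups were -1.24 and -1.26. IL1A did not pass the test against the mean (-0.31, adjusted p 0.382).

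Of 33 genes of matrix proteases and their inhibitors, 4 were separate and higher and none lower, beside 1.34% and 1.75% of all genes. Against the mean, 9 were higher and 4 lower (median 0.13). MMP1, a collagenase gene, was at 1.79, 1.84 and 1.84 against -1.08 to 0.08, with a smallest difference of 1.80 (3.47-fold). MMP3, a stromelysin gene, was at 1.56, 0.97 and 1.47 against -0.35 to 0.68. SERPINB7 was at 0.98, 1.02 and 0.82, with young 20% cells far lower at -2.62 to -2.29. ADAMTS1 was 1.22 higher than the mean and not separate, since young 20% cells at 0.80 to 0.88 overlapped the senescent arrays at 0.66 to 0.81.

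Of 16 collagen-modifying enzyme genes, 3 were separate and higher, LOXL3, LOXL4 and P4HA2, and 9 were higher than the mean. LOXL3, a lysyl oxidase-like gene, was at 1.36, 1.53 and 1.16 against -0.72 to 0.13. Among 28 collagens, 2 were separate and lower, beside 1.75% of all genes: COL3A1 (-0.55, -0.49 and -0.37 against -0.11 to 0.29) and COL11A1. The call of COL11A1 was lost without young 20% replicate 1 (adjusted p 0.0613) or 2 (0.0716). Of 48 other matrix genes, 4 were higher and 3 lower than each group. ECM1 was at 0.78, 0.86 and 1.0 against -0.45 to 0.12, and the proteoglycan gene VCAN at -0.70, -0.82 and -0.92 against -0.30 to 0.99. SPARC lost its call without any senescent array (up to 0.105) and with an assumed pairing of senescent and old replicates as a block (0.0521). The call of COL3A1 was lost when the probe set of largest spread stood for the gene (adjusted p 0.114).

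Wnt signalling had 2 separate genes in each direction among 37, beside 1.34% higher and 1.75% lower of all genes. WNT5B, a ligand gene, was at 0.49, 0.82 and 0.70 against -0.52 to 0.24, and DKK3 at 0.58, 0.56 and 0.73 against -0.41 to 0.10. The antagonist gene DKK1 was at -0.86, -0.92 and -0.58 against -0.21 to 0.46, and the receptor gene FZD7 at -0.48, -0.60 and -0.58 against -0.08 to 0.11. WNT2, which marks lung mesenchyme, was 1.77 below the mean but its difference from young 3% cells was -0.51 (adjusted p 0.124). Of 28 growth factor genes 1 was separate, beside 3.09% of all genes. It was the receptor kinase gene KIT, at 1.18, 1.31 and 1.21 against -0.89 to 0.49.

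HIF targets, genes of the hypoxia response, were higher than the mean in 18 of 32 (median 0.42) and separate in 6, all higher. The comparison with young 20% cells called 25 higher, and those with young 3% and old cells 7 and 11. ENO2, a glycolytic enzyme gene, was at 0.67, 0.67 and 0.66, with young 20% cells at -2.04 to -1.90 and the 3% groups at -0.18 to 0.29. BNIP3L, a mitophagy receptor gene, was at 0.51, 0.64 and 0.53, with young 20% cells at -0.90 to -0.80 and the 3% groups at -0.11 to 0.08. BNIP3 was 2.37 higher than young 20% cells and 0.29 higher than young 3% cells, and the latter did not pass the test (adjusted p 0.0802). On the mean of the list, the senescent arrays at 20% oxygen (0.18 to 0.28) lay above the arrays at 3% oxygen (-0.03 to 0.15), and the young arrays at 20% oxygen lay below both (-0.81 to -0.77).

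Of 44 lysosomal genes, 6 were separate and higher, 17 were higher than the mean and 1 lower (median 0.22). ATP6AP1, a proton pump subunit gene, was at 0.56, 0.52 and 0.62 against -0.55 to 0.11, CTSB, a cysteine protease gene, at 0.57, 0.53 and 0.57 against -0.50 to 0.05, and FUCA1, a fucosidase gene, at 0.73, 0.69 and 0.59 against -0.44 to 0.17. The calls of CTSA, LAMP2 and NPC2 were lost without any single senescent array (adjusted p up to 0.136, 0.145 and 0.153 over the arrays left out), and that of CTSB when its probe set of largest spread stood for the gene (0.502). Of 18 class I antigen presentation genes, 4 were separate and higher (median 0.18). HLA-B was at 0.49, 0.58 and 0.60 against -0.23 to 0.06, and HLA-C and HLA-E were also above all other arrays. The HLA genes are alike in sequence, so signal may be shared between them. HLA-G lost its call without any senescent array (up to 0.122), and a replicate block over all groups ended the calls of HLA-G (0.0518) and NPC2 (0.0647).

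The remaining lists stand beside a share of 3.09% separate among all genes, and differences from that share were not tested. Of 43 interferon-stimulated genes TRIM22 was separate, at 1.23, 1.35 and 1.28 against -0.99 to 0.25. Of 20 clustered histone genes H2AC6 was separate, at 1.61, 1.59 and 1.61 against -0.93 to 0.59. H2BC21 and H2BC12 were higher than the mean and not separate from young 20% cells. Among 16 heat shock chaperone genes, HSPE1 was lower than each group and held without each array, while HSPH1 and DNAJA1, lower, and DNAJB4, higher, lost their calls when single arrays were left out (adjusted p up to 0.052, 0.0603 and 0.208). A replicate block over all groups ended the call of DNAJB4 (0.062), and the probe set of largest spread those of DNAJB4 (0.381) and HSPH1 (0.35). No gene was separate among 10 IGF axis genes, 24 immediate-early genes, 9 metallothioneins, 18 cholesterol synthesis genes and 19 lung mesenchyme transcription factors, although 6 metallothioneins and 6 IGF axis genes were higher than the mean. FOS, an immediate-early gene, was at -0.62, -0.20 and -0.44, with young 20% cells at 2.32 to 2.70. NOTCH3, MANF, GCLC and the contractile genes ACTC1 and CNN2 were the separate genes of 4 more lists, of which MANF, GCLC and CNN2 lost their calls when single arrays were left out (adjusted p up to 0.0959, 0.0666 and 0.147). CNN2 also lost its call with an assumed pairing of senescent and old replicates as a block (0.063).

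**Figure D5:**
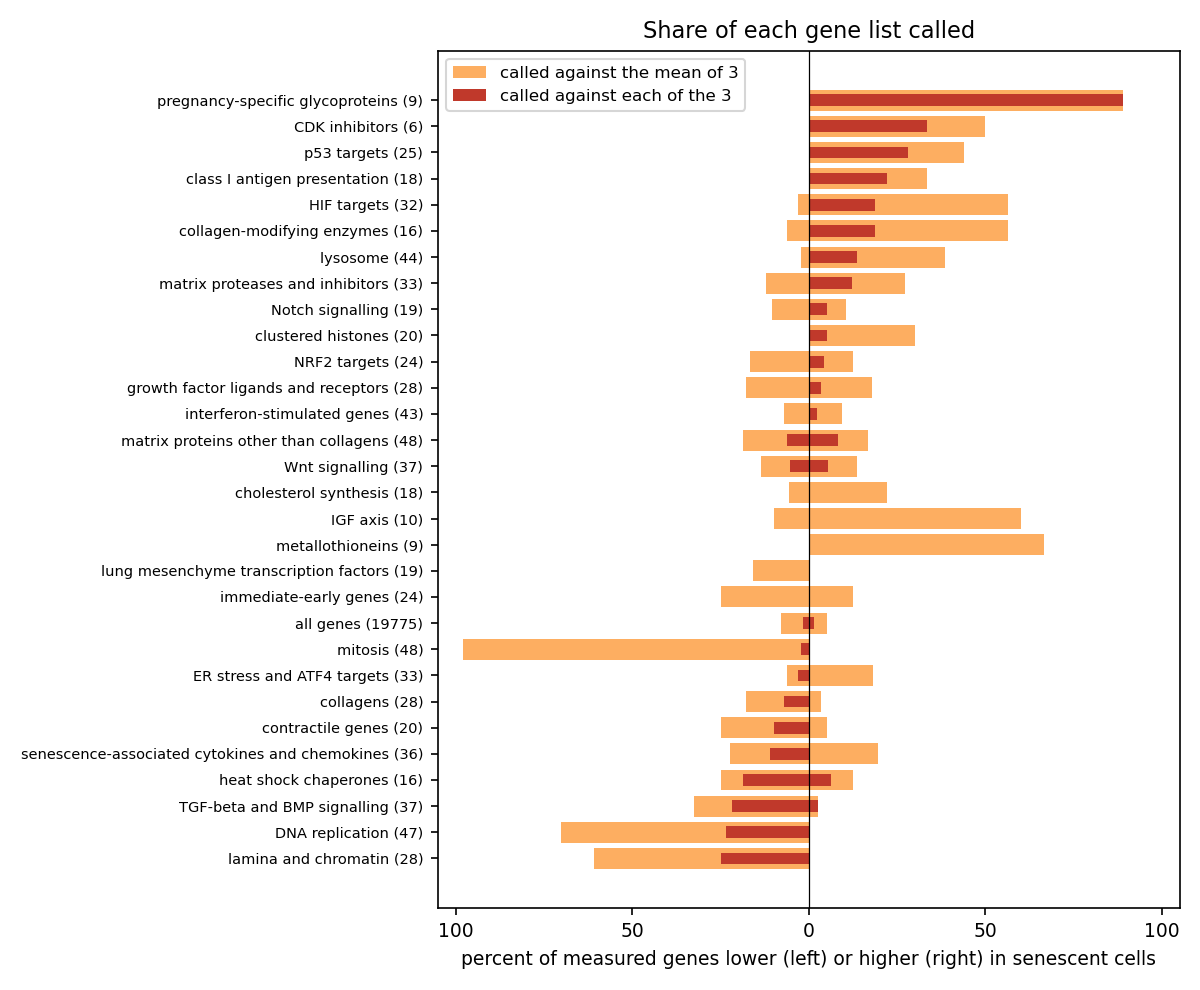
Percent of the measured genes of each list (x axis; number in brackets) that were lower (left) or higher (right) in senescent cells, against the mean of the 3 groups (orange) and against each group (red). Of the pregnancy-specific glycoproteins 8 of 9 are in both bars, whereas mitosis falls from 47 of 48 genes against the mean to 1 against each group; all genes have a bar of their own.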

How the data were processed

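RNA from 12 IMR-90 samples was hybridised to Affymetrix arrays. The deposited values were made with RMA, per the submitters' processing notes, in a version not given in the sources used here. They were taken as log2 values, a base the authors' labels do not state. The deposited log2 values of each probe set have a median of 0 over the 12 arrays, within 5.0e-07, so that absolute levels were not used. Arrays carry no read depth; the number of arrays limits the precision.

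Of 54675 probe sets, 41091 name 1 gene (41037 matched to a current symbol) and were averaged to 19775 genes; 1801 naming several genes, 62 controls and 11721 naming none stayed out. Group means were fitted with limma 3.58.1 in R 4.3.3 on all 12 arrays, and p-values, two-sided, were adjusted by Benjamini-Hochberg over all genes. A gene was called at an adjusted p under 0.05; a gene called with 1 sign against each of 3 groups has its largest adjusted p quoted. The 3 contrasts share the senescent arrays. Alternatives were other normalizations, probe set choices, thresholds, array weights, covariates, the replicate block and each array left out. The covariates were added after the data were seen. Scripts were tested on simulated data. Some items are not reported here.

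Genes named were, per direction, the 15 with the largest smallest difference among called genes whose senescent arrays lie outside the 9 others, the 6 with the largest difference from the mean that failed against a group, up to 6 called and 4 other members per list, and a panel; genes said to be chosen after their values were seen, RELN and CLDN1 among them, fall outside it, as do CDC6, VIM and the genes listed by name alone. The members and 29 gene lists and 6 marker lists were chosen with earlier results of these data known. Same-numbered senescent and old replicates deviated together (correlations 0.129, 0.519 and 0.669). In no other pair of groups did all 3 numbers do so. The labels state no pairing, so a pairing of these groups was assumed from these same values and was not tested. With the assumed pairing as a replicate block in these groups alone, 2842 genes were called between them and 658 against each group. This setting was added after the data were seen.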

Additional observations from a re-analysis of the deposited data

Results flagged for a closer look

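Probe sets that name no gene were outside the gene comparison. Among 11721 of them, 18 were higher (0.154%) and 53 lower (0.452%) in senescent cells than in each other group. The largest rise was in probe set 226197_at, at 2.60, 2.47 and 2.88 on the senescent arrays and -0.44 to 0.08 on the 9 others, with a smallest difference of 2.66 and a largest adjusted p in limma of 1.77e-06. The largest fall was in probe set 1555968_a_at, at -2.88, -3.57 and -2.12 against -0.06 to 0.26, with a smallest difference of -2.84 and a largest adjusted p of 5.8e-05. Groups of 3 arrays were not tested for single outlying samples.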

How the results depend on the processing

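Of the 26 alternatives, those other than the thresholds were checked for sign, in the 252 named genes alone. No called value of these genes changed sign, with the median taken over uncollapsed probe sets. Counts are given in the order mean of the 3 groups, young 20%, young 3%, old 3%, each group, then genes separate for young 20%, young 3% and old 3%. The main counts were 2583, 2474, 2157, 2176, 611, 879, 59 and 160. A 2-fold minimum gave 280, 372, 409, 470, 64, 116, 7 and 35, and an adjusted p under 0.01 gave 1552, 1477, 1258, 1305, 322, 475, 28 and 88. Uncollapsed probe sets gave 4881, 4678, 4020, 3938, 1212, 1706 and 101 for the first 7. Array quality weights gave 5177 for the mean, 6203 for young 20%, 4137 for old 3%, 1256 for each (644 higher and 612 lower), then 1746, 100 and 258; the weights ran from 0.374 to 5.69. Fitting each pair of groups alone, with the 9 nonsenescent arrays as a single group, gave 1019 for the mean, 25 for separate young 3% and 75 for separate old genes. An array-wide factor as covariate, chosen after seeing the data, gave 4803 for young 3%, 984 for each, and 685 and 417 for separate young 3% and old genes. The cause of these shifts was not tested.

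Leaving out 1 array gave 1766 to 2770, 1687 to 2567, 1462 to 2298, 1607 to 2261, 398 to 623, 561 to 845, 43 to 67 and 94 to 182. A replicate block over all groups gave 2465, 2303, 1995 and 2028, and 561 genes against each group. Of 5911 values of the 252 named genes under alternatives, 5473 kept their direction and side of the threshold, 396 lost the call and 26 gained it. The other 16 turned sign, none of them called, in PSG11, BCL2, COL1A1, CDKN2D, GLI2 and TERT. Of the 611 genes, 305 held in all 23 alternatives that used gene-level values and the main threshold. In the alternative that left out flat genes, a gene left out counted as lost. Of the 360 with several probe sets, 41 had probe sets of both signs. Signal over background could not be read from centred values, and 3 arrays a group limit the precision.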
